A study of Mus musculus with 7 samples.

Results

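Mitochondrial ribosomal protein genes were taken as the rows whose gene symbol is Mrpl or Mrps followed by a number and at most 1 letter, which gave 75 of 21902 named genes, 47 with an Mrpl symbol (large subunit) and 28 with an Mrps symbol (small subunit). Each had 1 probe set, a group of array probes summarised to 1 value. The samples were regulatory T (Treg) cells, a Foxp3-positive class of CD4 T cell that holds immune responses in check, sorted as CD4+ YFP+ cells from the spleen and pLN of mouse chimeras. The 3 KO arrays came from Foxp3Cre Pggt1b fl/fl chimeras and the 4 Het arrays from Foxp3Cre Pggt1b fl/wt chimeras. Both groups carry Cre driven with Foxp3, and the Het cells carry 1 floxed allele, so no array shows cells with neither. Pggt1b codes for the beta chain of protein prenyltransferase GGTase I, which attaches a lipid to proteins. The labels give neither the age of the animals nor the makeup of the chimeras. They also leave unsaid whether each sample is its own animal, and p-values therefore reflect sample-to-sample spread that may be technical.

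Mitochondria keep a small genome of their own that encodes core subunits of the respiratory chain, and the mitochondrial ribosome (mitoribosome) translates them. Its RNAs are transcribed inside the organelle, whereas all of its proteins are encoded in the nucleus, made in the cytosol and imported. The small subunit binds the mRNA and decodes it, and the large subunit joins the amino acids and guides the new chain to the inner membrane. Some of the proteins have counterparts in bacterial ribosomes and others occur only in mitochondria. T cells enlarge their mitochondria and this machinery when they leave rest.

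The comparison of KO with Het arrays asks how the Treg transcriptome differs when both Pggt1b alleles are floxed rather than 1. The genes were tested with limma over 13083 genes that exceeded a background floor on at least 3 arrays. That floor, set on each array by the upper 95% mark of 1117 probe sets for olfactory receptors, lay at 5.48 to 5.77 on the log2 scale. The correlation between arrays was 0.942 to 0.964 across genotypes and 0.971 to 0.987 within a genotype. Of 6 markers of Treg cells, Foxp3, Cd4 and Cd3e averaged 11.24, 10.34 and 11.57 log2 units in KO arrays and 11.18, 10.32 and 11.65 in Het arrays. Ikzf2 and Ctla4 fell (-1.22 ± 0.16 and -0.80 ± 0.17, SE). Il2ra did not pass, but it averaged 5.45 in KO and 5.61 in Het arrays. It lay above the floor on only 1 KO and 2 Het arrays, so its change can hardly be read. Pggt1b itself read 6.59, 6.62 and 6.59 in KO arrays and 7.09, 7.11, 6.71 and 6.97 in Het arrays, a log2 change of -0.37 ± 0.13 (SE) that did not pass (limma adjusted p = 0.126, exact two-sided permutation p = 0.0571, the smallest that the 35 splits allow). Where its probes lie relative to the floxed part is not known here, so these values do not measure how complete the deletion was. Of 19 tested myeloid markers, 13 rose in KO cells. Among the 13, Mrc1, C1qc, Cd14 and Itgax lay above the floor on KO arrays alone. Mpeg1 and Fcer1g lay above it on 1 Het array and Csf1r and Itgam on 2, fewer than the 3 arrays needed. Only their KO values brought all of these genes into the test, so the count favours rises. In bulk samples, fewer cells of a type and less RNA per cell cannot be told apart.

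Few mitochondrial ribosomal protein genes passed the test between the genotypes. Of the 75, 74 lay above the floor on every array and were tested, and Mrpl43 lay below it on every array. At an adjusted p under 0.05, 2 of the 74 fell in KO cells and 0 rose, where 3.24% of all tested genes fell and 2.55% rose (5.79% together). At an unadjusted p under 0.05, 11 were lower and 0 higher (limma). The 11 are 14.9% of the members, beside 11.0% of all tested genes that were lower and 8.91% that were higher. In 7 members (9.46%) all KO arrays lay below all Het arrays, as they did in 9.82% of tested genes, and in 0 members did they all lie above (9.68%). The direction was less even: the KO mean was below the Het mean in 59 of the 74 members (79.7%) and in 53.3% of all tested genes. The median log2 change of the members was -0.17, beside -0.02 for all tested genes. With each array centred on its median, 54 of 74 members were lower by sign, beside 41.6% of all tested genes, and the calls over all genes were 291 lower and 406 higher in place of 424 and 333.

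**Figure D1:**
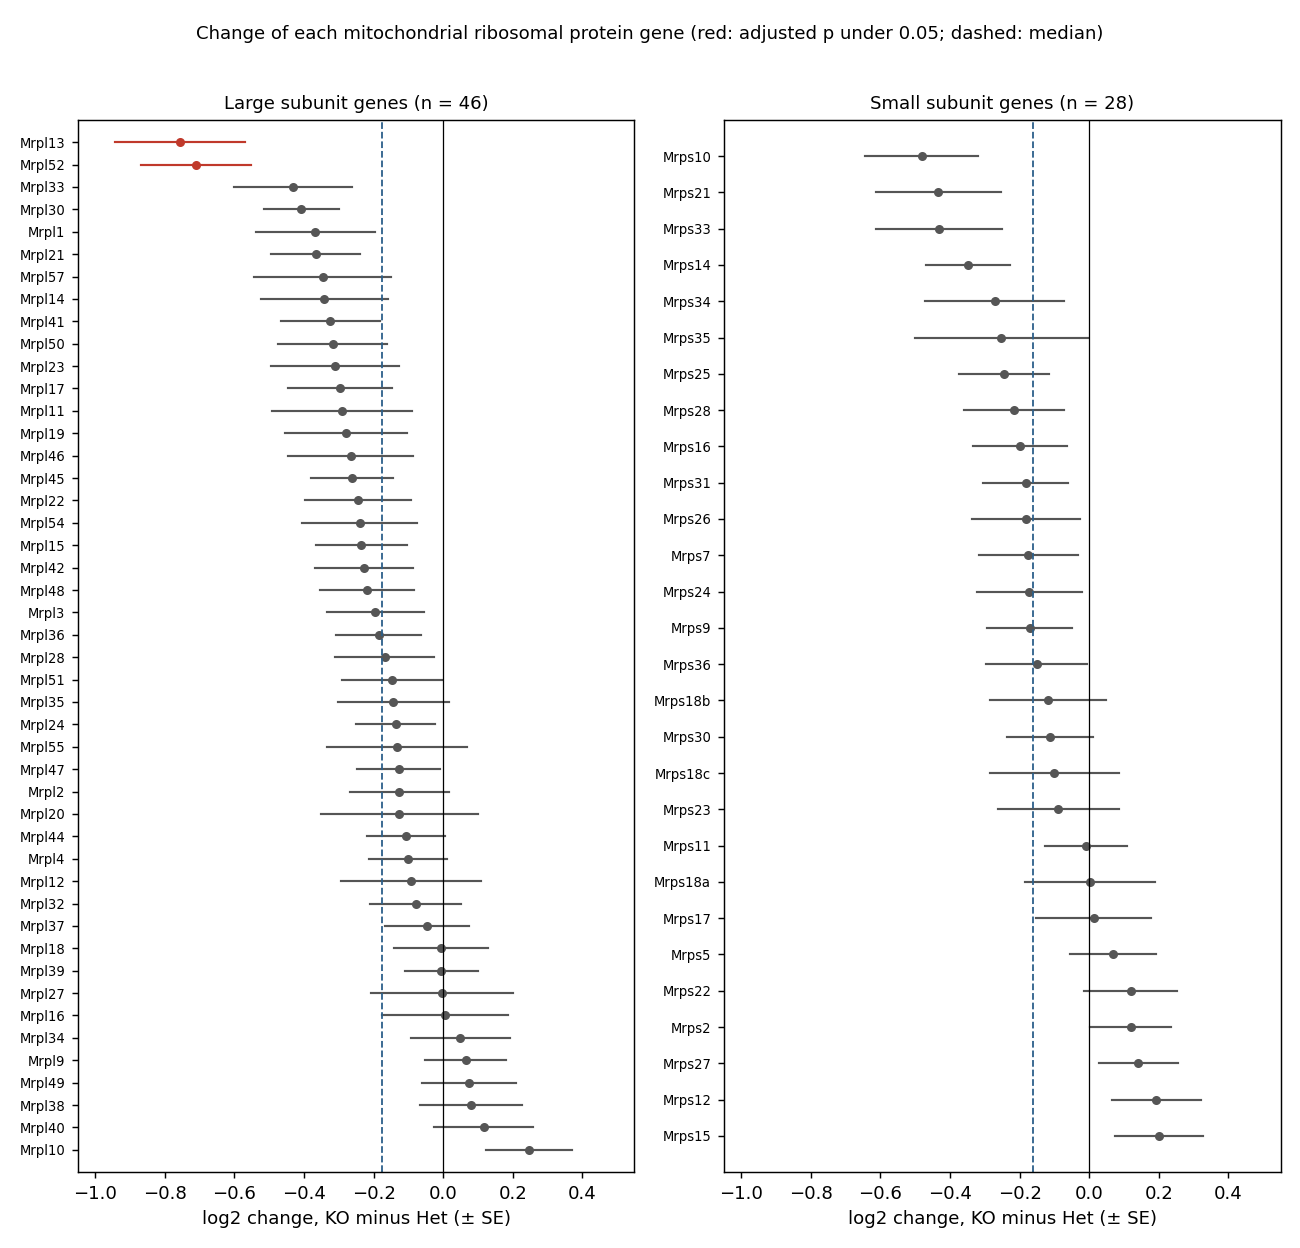
Log2 change (KO minus Het, with its SE from limma) of the 46 tested large subunit genes and the 28 small subunit genes, with red for an adjusted p under 0.05 and a dashed line at each median. Most points lie left of 0 by less than 0.5, and Mrpl13 and Mrpl52 alone are red.

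The 2 genes that fell both encode large subunit proteins. Mrpl52, a protein without a bacterial counterpart, read 8.01, 8.07 and 8.26 log2 units in KO arrays and 9.00, 9.03, 8.82 and 8.44 in Het arrays. Every KO value lay below every Het value, and Het replicate 4 was the nearest Het array to the KO arrays. Its log2 change was -0.71 ± 0.16 (SE), or 1.64-fold lower, with a limma adjusted p of 0.0257. Mrpl13, the counterpart of a bacterial large subunit protein, read 6.92, 7.00 and 6.76 in KO arrays and 7.78, 8.05, 7.60 and 7.16 in Het arrays. Here too the groups did not overlap, with the same Het array nearest. The change was -0.76 ± 0.19, or 1.69-fold lower, with a limma adjusted p of 0.0418. Leaving out KO replicate 1 (-0.66), KO replicate 2 (-0.69), Het replicate 1 (-0.65), Het replicate 2 (-0.64) or Het replicate 3 (-0.71) ended the Mrpl52 call. The Mrpl13 call was lost without any array other than Het replicate 4, at changes of -0.62 to -0.81. Both calls were also lost with arrays centred on their median, at changes of -0.69 for Mrpl13 and -0.65 for Mrpl52, and with a myeloid covariate, at -0.82 and -0.73. That of Mrpl13 was lost after quantile normalization (-0.70) and when dim genes were not filtered out (-0.76). The fitted changes thus stayed close to their size where the calls were lost.

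Another 5 members had KO arrays wholly below the Het arrays without passing, and they are named because of that pattern. Mrpl30 read 6.89, 6.95 and 6.93 in KO arrays and 7.32, 7.35, 7.21 and 7.44 in Het arrays, with little spread within either group. Its change of -0.41 ± 0.11 (SE) just missed the threshold (limma adjusted p = 0.0562). Mrps14, whose bacterial counterpart sits in the head of the small subunit, read 10.38, 10.47 and 10.40 in KO arrays and 10.99, 10.70, 10.67 and 10.68 in Het arrays, with Het replicate 1 apart from the rest. The other members of this kind, Mrpl21, Mrpl33 and Mrps21, had log2 changes of -0.37, -0.43 and -0.43, with adjusted p values of 0.137, 0.185 and 0.210 (limma). In Mrpl33, Mrpl21 and Mrps21 as well, the highest value was that of Het replicate 1.

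**Figure D2:**
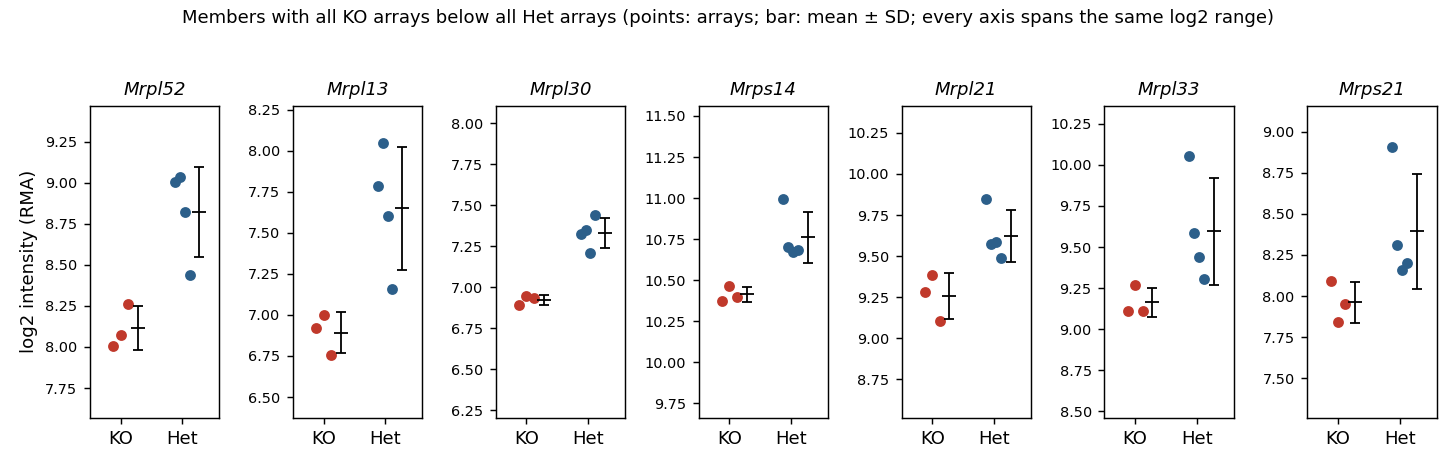
Log2 intensity on each array (points), with mean ± SD, of the 7 members whose KO arrays (left) all lie below the Het arrays (right), each axis spanning the same range. KO arrays are close together, and Het replicate 1 stands highest in 4 of the genes (Mrps14, Mrpl21, Mrpl33 and Mrps21).

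Promoters are shown for members that the results turn on: Mrpl52, which fell; Mrpl30, which came closest to passing of the rest; Mrpl10, which had the largest change upward; and Mrpl46, which starts back to back with Mrps11. The windows run from 250 bases before to 50 after the RefSeq start on build GRCm38.p6, at chr14:54426659-54426958 (+), chr1:37890227-37890526 (+), chr11:97041332-97041631 (+) and chr7:78783040-78783339 (-). Capitals in the first 3 mark matches to the letters of ETS factors (CCGGAAG) or of NRF1, the nuclear respiratory factor (GCGCANGCG), on either strand. In the Mrpl46 window, which held no match, they mark the stretch between its start and that of Mrps11.
Mrpl52: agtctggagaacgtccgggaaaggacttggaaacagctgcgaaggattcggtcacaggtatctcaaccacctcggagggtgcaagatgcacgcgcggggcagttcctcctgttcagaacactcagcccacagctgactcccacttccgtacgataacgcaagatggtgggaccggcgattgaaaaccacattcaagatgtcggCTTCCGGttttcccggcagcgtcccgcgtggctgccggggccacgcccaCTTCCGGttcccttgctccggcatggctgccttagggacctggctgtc
Mrpl30: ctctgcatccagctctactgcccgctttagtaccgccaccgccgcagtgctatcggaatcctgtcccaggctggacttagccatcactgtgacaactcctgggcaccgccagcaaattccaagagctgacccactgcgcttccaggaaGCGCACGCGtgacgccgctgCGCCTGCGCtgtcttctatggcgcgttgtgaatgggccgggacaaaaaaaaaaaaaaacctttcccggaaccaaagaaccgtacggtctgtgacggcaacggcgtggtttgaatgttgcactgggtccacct
Mrpl10: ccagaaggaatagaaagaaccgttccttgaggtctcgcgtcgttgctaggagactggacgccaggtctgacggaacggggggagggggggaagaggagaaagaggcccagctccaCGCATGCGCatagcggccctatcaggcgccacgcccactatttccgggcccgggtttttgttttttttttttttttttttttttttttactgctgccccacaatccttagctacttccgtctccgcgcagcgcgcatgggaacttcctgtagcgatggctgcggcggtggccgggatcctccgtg
Mrpl46: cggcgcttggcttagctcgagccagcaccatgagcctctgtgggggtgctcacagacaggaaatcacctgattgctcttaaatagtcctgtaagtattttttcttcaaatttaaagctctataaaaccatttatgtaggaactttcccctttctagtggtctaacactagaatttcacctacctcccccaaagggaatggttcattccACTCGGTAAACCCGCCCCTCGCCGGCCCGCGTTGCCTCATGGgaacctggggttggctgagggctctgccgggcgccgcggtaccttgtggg

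The Mrpl52 window held ETS letters at positions -47 to -41 from the start and again at 3 to 9. The Mrpl30 window held NRF1 letters at -102 to -94 and at -82 to -74, and the Mrpl10 window at -135 to -127. RefSeq windows were at hand for 66 members (72 windows). NRF1 letters were in 16 of these 72 windows (22.2%), against 12.2% of the windows of tested genes and 6.25% of all 32851 windows. ETS letters were in 33.3% of the members' windows, against 16.2% for tested genes and 8.86% for all. For YY1 (ATGGCGG) the shares were 16.7%, 7.5% and 4.05%, and for the E-box bound by Myc (CACGTG), which reads the same on both strands, 9.72%, 9.39% and 7.15%. Matches were sought on both strands and may overlap each other, and a match is a description of letters, not of a bound site. The median GC content was 58.2% in the members' windows, 60% in those of tested genes and 52.7% in all. Tested members with NRF1 letters had a median log2 change of -0.18 (16 genes) and those without one of -0.14 (49 genes). With ETS letters the median was -0.18 (23 genes) and without them -0.14 (42 genes), while with YY1 letters it was -0.01 (12 genes) and without them -0.17 (53 genes), and with an E-box -0.13 (5 genes) and without it -0.16 (60 genes). These differences were not tested.

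Mitoribosomal genes often lay head to head with another gene. Of the 66 members with a window, 27 (40.9%) did so, against 19.8% of the 9758 tested genes with a window. The starts counted lie on opposite strands and point away from each other, at most 1000 bases apart. Starts that overlap by up to 300 bases were counted too, as for Mrpl48 and Rab6a (-36 bases). Mrpl46, part of the large subunit's central protuberance, and Mrps11, a small subunit protein, start 42 bases apart. Mrpl46 averaged 7.86 ± 0.09 in KO and 8.13 ± 0.35 in Het arrays, and Mrps11 8.88 ± 0.06 in KO and 8.89 ± 0.14 in Het arrays (SD, n = 3 and 4). Mrps12 lies head to head with Sars2, the mitochondrial seryl-tRNA synthetase, with starts 147 bases apart. Their log2 changes were 0.19 ± 0.13 and -0.10 ± 0.15 (SE). Of 20 tested partners that are not themselves members, 0 passed in either direction (limma), 13 were lower in KO by sign, and their median change was -0.08 beside -0.12 for the members they adjoin.

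The medians of large and small subunit genes lay close together, though farther apart with the myeloid covariate (-0.47 and -0.29), and the difference between them was not tested. In the large subunit 39 of 46 tested genes (84.8%) were lower by sign and 2 (4.35%) fell, with a median log2 change of -0.18 and changes from -0.76 to 0.25. In the small subunit 20 of 28 (71.4%) were lower by sign and 0 fell, with a median of -0.16 and changes from -0.48 to 0.20. At an unadjusted p under 0.05 (limma), 7 large (15.2%) and 4 small subunit genes (14.3%) were lower. Over all tested genes, 53.3% were lower by sign, 3.24% fell and 11.0% were lower at an unadjusted p under 0.05. Symbols do not follow structure throughout: the proteins of Mrps30 and Mrps18a sit in the large subunit of the mammalian mitoribosome, and that of Mrps36 is a part of the 2-oxoglutarate dehydrogenase complex. With genes placed by structure, the medians were -0.16 for 48 large subunit genes and -0.17 for 25 small subunit genes, so their order turned. Mean levels were 8.02, 7.98 and 7.99 in KO arrays and 8.42, 8.23, 8.10 and 7.98 in Het arrays for large subunit genes. For small subunit genes they were 7.89, 7.88 and 7.94 in KO arrays and 8.22, 8.06, 7.97 and 7.86 in Het arrays. In both subunits the 3 KO arrays lay close together, and Het replicate 4 lay among or below them while Het replicate 1 lay farthest above.

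**Figure D3:**
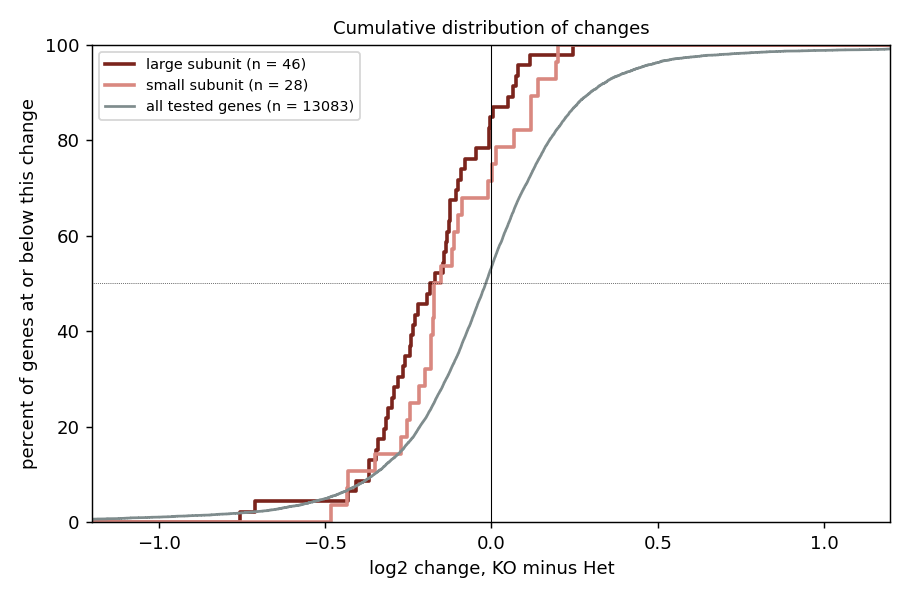
Cumulative percent of genes (vertical axis) at or below a given log2 change, KO minus Het (horizontal axis), for 46 large subunit genes, 28 small subunit genes and all 13083 tested genes. Both subunit curves lie left of that of all genes over most of the range, with medians of -0.18 and -0.16 against -0.02.

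The difference between the subunits' mean levels was 0.12, 0.10 and 0.06 in KO arrays and 0.19, 0.16, 0.13 and 0.12 in Het arrays. It overlapped between the genotypes at KO replicate 1 and Het replicate 4. As probe sets of different genes are not on 1 scale, only its change between arrays can be read. Proteins with a bacterial counterpart (47 tested genes) had a median log2 change of -0.14, with 1 called, and those without (27 genes) one of -0.18, with 1 called.

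Among large subunit genes, 0 of the 5 listed here for core proteins near the site where amino acids are joined passed. Their log2 changes ran from -0.19 to 0.01. They include Mrpl2, at 7.77, 7.97 and 8.05 in KO arrays and 8.37, 7.97, 7.87 and 8.01 in Het arrays, and Mrpl4, whose change was -0.10 ± 0.11 (SE, 95% interval -0.35 to 0.15). The stalk that recruits translation factors was split by sign among the genes listed here. Its base protein gene Mrpl10 read 6.77, 7.01 and 7.09 in KO arrays and 6.69, 6.83, 6.75 and 6.56 in Het arrays, the highest change among the members (0.25 ± 0.12, limma adjusted p = 0.307). Mrpl12, whose protein forms the mobile arm of the stalk, read 7.20, 7.15 and 7.13 in KO arrays and 7.86, 6.89, 7.03 and 7.23 in Het arrays. Its Het values spanned more than its change of -0.09, which was 0.11 without Het replicate 1. Mrpl11, next to the stalk, had a log2 change of -0.29 ± 0.20, with Het values from 7.98 to 8.95 around the KO values of 8.10 to 8.36.

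The genes listed here around the exit tunnel, through which the new chain leaves, were lower by sign in 4 of 4, at -0.14 to -0.31, with 0 called. Mrpl45, whose protein faces the inner membrane, read 8.06, 8.03 and 8.28 in KO arrays and 8.40, 8.27, 8.36 and 8.51 in Het arrays, overlapping only at KO replicate 3 and Het replicate 2. Mrpl23 read 9.06, 9.06 and 8.91 in KO arrays and 9.72, 9.35, 9.38 and 8.82 in Het arrays, where Het replicate 4 was the lowest of all. Of the 4 genes listed here for the central protuberance, which touches the small subunit, 2 were lower by sign. Mrpl46 and Mrpl48 had log2 changes of -0.27 ± 0.18 and -0.22 ± 0.14, and Mrpl38 and Mrpl40 of 0.08 ± 0.15 and 0.12 ± 0.14 (SE). The groupings of large subunit genes were made with the changes known and need not cover their regions. Mrpl44, which has a ribonuclease III fold, had one of -0.11 ± 0.11. The brightest large subunit probe sets, those of Mrpl24 and Mrpl37, had log2 changes of -0.14 ± 0.11 and -0.05 ± 0.12. Mrpl1, the dimmest above the floor, averaged 5.90 ± 0.09 in KO and 6.26 ± 0.33 in Het arrays (SD, n = 3 and 4), with Het replicate 4 (5.78) below every KO array.

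In the small subunit, the 5 genes listed here for proteins of the head were all lower by sign, at -0.17 to -0.48, with 0 called. Mrps10 read 6.84, 7.23 and 7.40 in KO arrays and 7.57, 7.74, 7.85 and 7.40 in Het arrays. Het replicate 4 lay level with the highest KO array, and the change was -0.48 ± 0.16 (SE, limma adjusted p = 0.122). With the myeloid covariate its sign turned, to 0.14. Mrps7 overlapped between the genotypes (-0.17 ± 0.14). Of the 5 genes listed here for the body and decoding region, 1 was lower by sign, with changes of -0.20 to 0.20. Mrps12, part of the decoding centre, read 9.43, 9.50 and 9.66 in KO arrays and 9.56, 9.15, 9.33 and 9.32 in Het arrays. Mrps15 had a log2 change of 0.20 ± 0.13 and Mrps16 one of -0.20 ± 0.13. Of these 5 genes 0 passed. Both groupings were made with the changes known. Each takes in 5 of the 28 small subunit genes and need not cover its region. Of all 28, 20 were lower by sign, so the split depends on which genes were listed. The difference between the groups was not tested.

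The remaining small subunit genes named by role or size of change did not pass either. Mrps33 read 8.33, 8.19 and 8.30 in KO arrays and 9.05, 8.92, 8.63 and 8.24 in Het arrays, and its change was -0.43 ± 0.18 (SE). Log2 changes were -0.27 ± 0.20 for Mrps34, -0.17 ± 0.15 for Mrps24, 0.12 ± 0.13 for Mrps22 and, for Mrps27, a pentatricopeptide repeat protein, 0.14 ± 0.11. For the 3 paralogs of bacterial S18 they were 0.00 ± 0.19 (Mrps18a), -0.12 ± 0.17 (Mrps18b) and -0.10 ± 0.19 (Mrps18c). Mrps30 and Mrps36 had log2 changes of -0.11 ± 0.12 and -0.15 ± 0.15. The 36 tested members not named here had log2 changes of -0.35 to 0.12, and their lowest adjusted p was 0.233 (limma). These values do not show that the genes are alike in both genotypes: the 95% interval of the change had a median half-width of 0.32, and in 36 of the 74 members it reached a fall of 0.5 or more on the log2 scale.

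The spread of the family over the arrays was larger in Het than in KO samples. The mean of the 74 tested members was 7.96 ± 0.02 in KO and 8.12 ± 0.17 in Het arrays (SD, n = 3 and 4), with KO arrays between 7.94 and 7.97 and Het arrays between 7.93 and 8.34. Het replicate 1 gave the highest value of the 7 arrays in 46 of 74 members (62.2%), against 17.8% of all tested genes. Het replicate 4 gave the lowest in 18 members (24.3%), against 15.8%. The range among Het arrays was thus larger than the difference between the genotype means. Without Het replicate 1, 51 of 74 members were lower by sign, at a median change of -0.08, and 0 passed. Without Het replicate 4, 61 were lower, at a median of -0.23, and 4 fell: Mrpl1, Mrpl13, Mrpl52 and Mrps33.

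**Figure D4:**
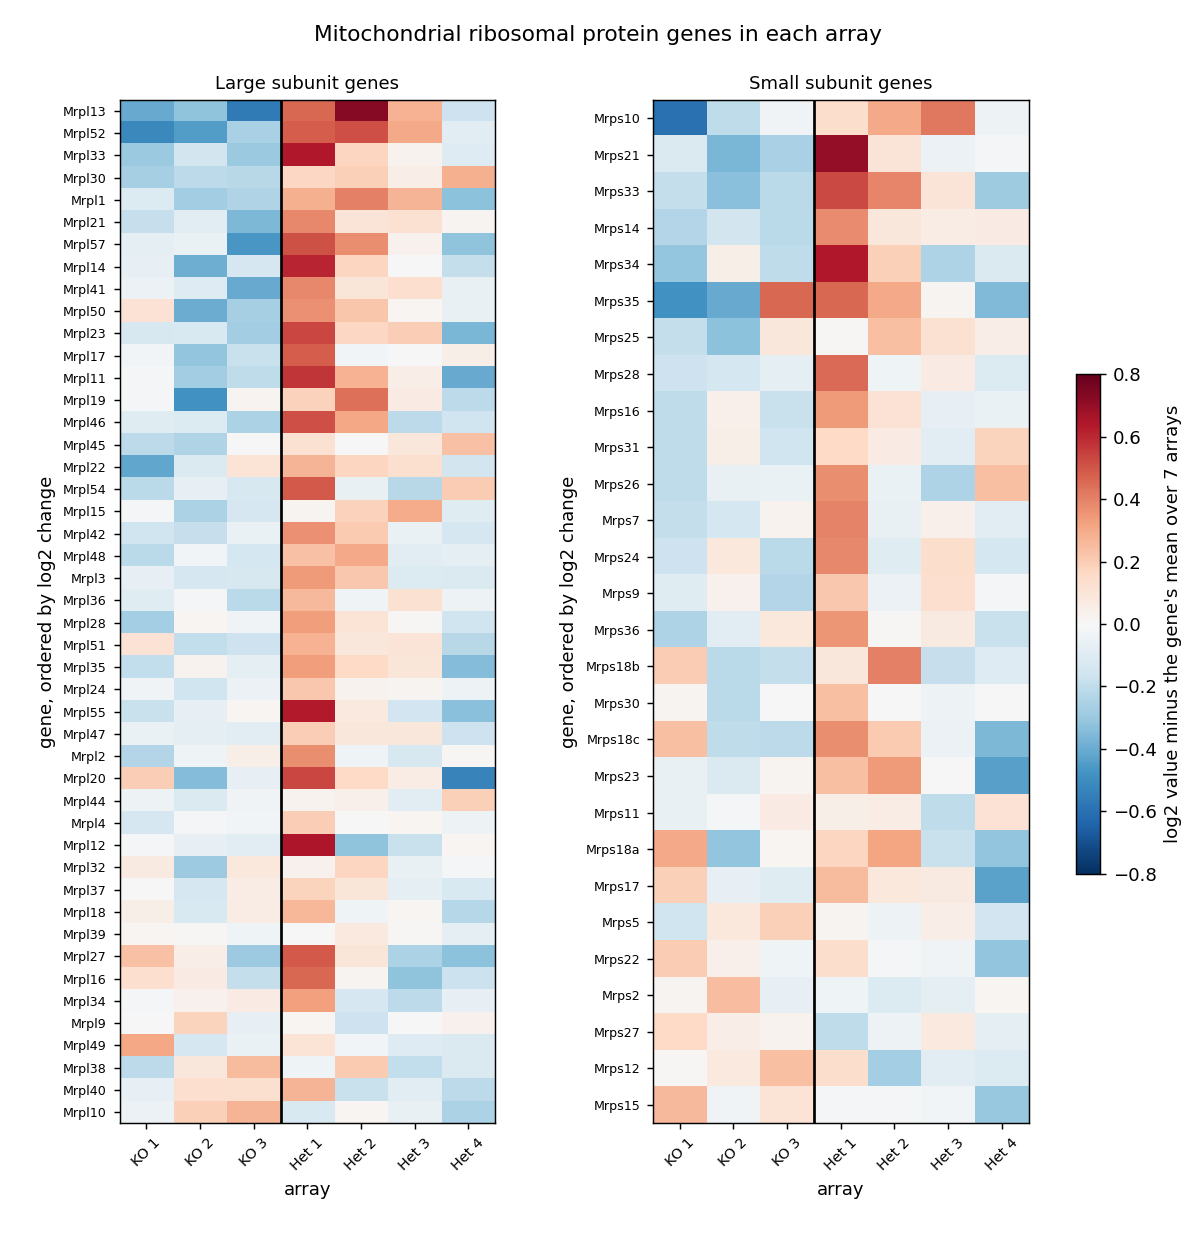
Log2 value minus the gene's mean over the 7 arrays (colour) for each tested gene (rows, ordered by change) and array (columns, KO left of Het). Het replicate 1 is red for most genes, whereas Het replicate 4 resembles the KO arrays.

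Markers of other cells differed between the same arrays. As the median deviation from each gene's mean over the arrays, the 19 tested myeloid markers (of 23 with a probe set) stood at 1.36, 0.32 and 0.58 in KO arrays and -0.38, -0.73, -0.74 and -0.63 in Het arrays. Their mean level ranged between 7.14 and 8.06 in KO arrays and between 5.96 and 6.42 in Het arrays. The 6 tested erythroid markers stood at 1.22, 0.71 and -0.60 in KO arrays and -0.69, -0.87, -0.38 and 0.65 in Het arrays, with mean levels of 7.02 to 8.66 in KO arrays and of 6.42 to 8.16 in Het arrays. By this median, red cell markers were high on KO replicates 1 and 2 and Het replicate 4 and low on the rest. Klf1 and Epor did not follow it: on Het replicate 1 they read 5.82 and 6.23, above their KO means of 5.45 and 6.15. Of 4 tested B cell markers 0 passed (0 at an unadjusted p under 0.05, limma). Of 6 markers of CD8 T and NK cells, Klrb1c, Klrd1 and Ncr1 lay below the floor on every array. The 3 tested, Cd8a, Cd8b1 and Prf1, stood at 0.33, 0.37 and 0.39 in KO arrays and 0.08, -0.20, -0.49 and -0.29 in Het arrays. These medians did not overlap between the genotypes, whereas the values of Cd8a and Prf1 each did, and neither gene passed. Cd8b1, a chain of the CD8 receptor, rose by 0.65 ± 0.13 (SE, limma adjusted p = 0.0154). The part of these cells in the mitoribosomal values was not tested. Leaving out KO replicate 1, where myeloid markers were highest, 62 of 74 members were lower by sign, at a median of -0.15. Over all tested genes 47.4% were lower in that setting, at a median of 0.01. The remaining KO arrays still lay above every Het array in myeloid markers, so this setting does not separate myeloid level from genotype.

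The 9 mitochondrially encoded genes with a probe set, the mRNAs that the mitoribosome translates, had a median log2 change of -0.39, and 8 were lower by sign. All KO arrays lay below all Het arrays in 5 of them, among which COX2, a cytochrome oxidase subunit, and ND4, a complex I subunit, fell. For all tested genes the shares were 53.3% lower by sign, 9.82% with all KO arrays below all Het arrays and 3.24% called lower. COX2 read 10.57, 10.20 and 10.19 in KO arrays and 10.92, 11.16, 10.95 and 10.69 in Het arrays (-0.61 ± 0.15, limma adjusted p = 0.0378). ND4 read 9.81, 9.40 and 9.32 in KO arrays and 10.15, 10.34, 10.17 and 9.94 in Het arrays (-0.64 ± 0.15, limma adjusted p = 0.0316). ND2 and ND3 had log2 changes of -0.77 ± 0.21 and -1.08 ± 0.29 and missed the threshold, each at an adjusted p of 0.0596. With KO replicate 2 or 3, or Het replicate 1, 2 or 3, left out, or with arrays centred on their median, 0 of the 9 passed. Over the arrays left out the changes kept between -0.79 and -0.55 for ND4 and between -0.74 and -0.53 for COX2, and after centring they were -0.58 and -0.55. Without Het replicate 4 there were 4, and without KO replicate 1 there were 3. The sources used here do not give the probe sequences, so a match to nuclear copies of mitochondrial DNA was not tested.

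Cytosolic ribosomal protein genes, 79 of them tested, had a median change of -0.32, with 78 lower by sign, 9 called and KO arrays below all Het arrays in 54 (68.4%). Nuclear genes of respiratory chain subunits, 80 tested, had a median of -0.24, with 72 lower by sign, 6 called and no overlap in 25 (31.3%). The called genes were 11.4% of the cytosolic and 7.5% of the respiratory list. Beside these, 53.3% of all tested genes were lower by sign, 3.24% fell and 9.82% had all KO arrays below all Het arrays. The leading genes of the 2 lists were Rps21 (-0.91 ± 0.15, SE) and Atp5e (-0.78 ± 0.16). As the median deviation, cytosolic ribosomal genes stood at -0.26, -0.15 and -0.11 in KO arrays and 0.26, 0.18, 0.09 and 0.02 in Het arrays, with no overlap. Large subunit mitoribosomal genes stood at -0.06, -0.11 and -0.09 in KO arrays and 0.33, 0.10, 0.01 and -0.11 in Het arrays, where Het replicate 4 lay at the level of the lowest KO array. Whether the lists differ from each other was not tested. With 1 array left out, the cytosolic count of falls was 2 (KO replicate 1 or 3, or Het replicate 3), 1 (KO replicate 2 or Het replicate 2), 5 (Het replicate 1) or 16 (Het replicate 4). The respiratory count was 2 (KO replicate 1 or Het replicate 1), 1 (KO replicate 2 or Het replicate 3), 0 (KO replicate 3 or Het replicate 2) or 8 (Het replicate 4). With arrays centred on their median, 1 cytosolic and 0 respiratory genes fell, and with a trend and robust eBayes 40 and 11.

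**Figure D5:**
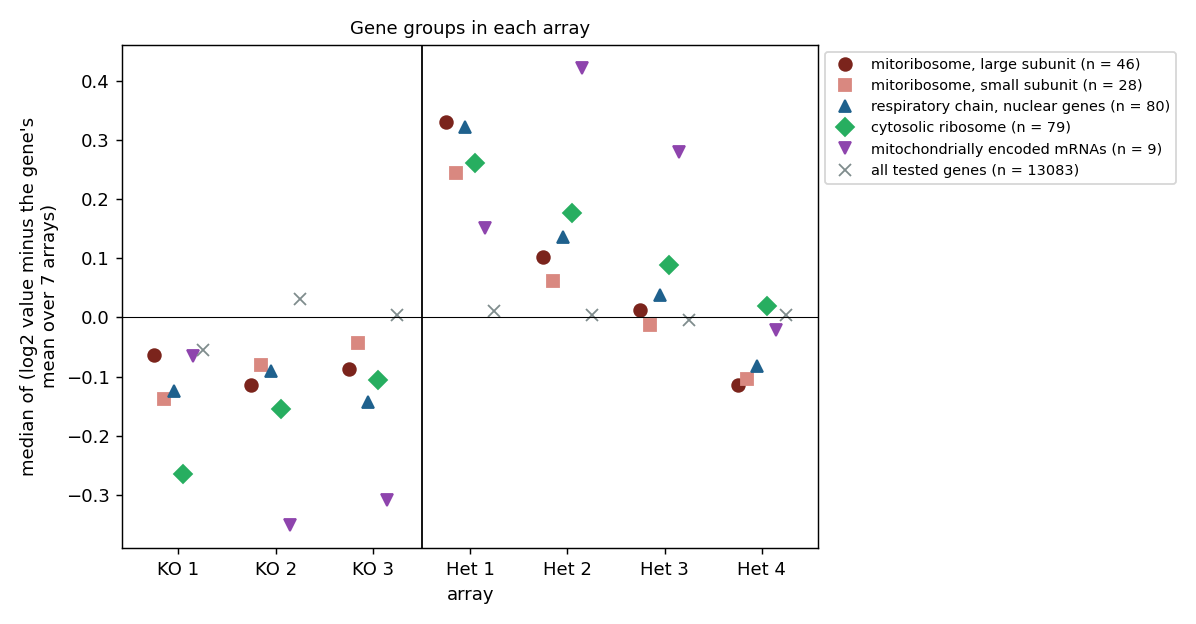
Median over each gene group (symbols) of the log2 value minus the gene's mean over the 7 arrays, for KO arrays (left) and Het arrays (right). Mitoribosomal, respiratory chain and cytosolic ribosomal genes are highest in Het replicate 1 and, among Het arrays, lowest in Het replicate 4, while the median of all tested genes stays between -0.06 and 0.03.

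Counts for the genes that build or serve the mitoribosome are read beside the 3.24% of all tested genes that fell and the 2.55% that rose. At an unadjusted p under 0.05 those shares were 11.0% and 8.91%. Of 33 tested assembly and rRNA modification genes 0 passed (3, or 9.09%, lower and 1 higher at an unadjusted p under 0.05, limma), at a median of -0.02. The rRNA methyltransferase Tfb1m (-0.43 ± 0.13, SE) and the GTPase Mtg2 (-0.52 ± 0.16) had the smallest p. Of 6 mitoribosomal proteins with other symbols 0 passed (0 at an unadjusted p under 0.05, limma), among them Dap3 (0.12 ± 0.16) and Chchd1 (-0.28 ± 0.20). Of 15 translation factors 1 (6.67%) fell, the release factor Mtrf1, at least 1.15-fold, as it lay below the floor on all KO arrays and above it on 3 of 4 Het arrays (limma adjusted p = 0.0333). Only its Het values brought Mtrf1 into the test, so this count favours a fall. Mtrf1 no longer passed when KO replicate 1 or 2, or any Het array but replicate 4, was left out, though its fitted change of -0.62 kept between -0.76 and -0.50 over the arrays left out. The ribosome recycling factor Mrrf read 6.10 on every KO array and 6.29 to 6.43 on Het arrays and did not pass. Its KO values were identical (SD 0), so they do not show the spread between KO samples. Slirp, which binds mitochondrial mRNAs, read 8.71, 8.13 and 8.41 in KO arrays and 9.17, 8.92, 8.85 and 8.42 in Het arrays and did not pass.

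Of 19 mitochondrial tRNA synthetase and related genes 0 passed (3 lower and 1 higher at an unadjusted p under 0.05, limma), with Fars2 (-0.40 ± 0.11, SE) and Vars2 (-0.34 ± 0.13) nearest to it. Of 17 genes of mitochondrial DNA upkeep and transcription 0 passed (2 lower at an unadjusted p under 0.05, limma), although 14 were lower by sign, among them Tfam (-0.36 ± 0.16) and Pnpt1 (-0.49 ± 0.17, and 0.28 with the myeloid covariate). Of 27 import genes 1 fell, Tomm7, a subunit of the outer membrane translocase, by 0.53 on the log2 scale (adjusted p = 0.035), a call lost without any array but Het replicate 4, while its change kept between -0.60 and -0.45 over the arrays left out. Timm8b, an import chaperone below the floor on all KO arrays, did not pass. Of 17 regulators of mitochondrial genes 1 rose, Myc, a driver of cell growth and ribosome synthesis, which read 11.22, 11.12 and 11.21 in KO arrays and 10.64, 10.63, 10.66 and 10.59 in Het arrays (0.55 ± 0.10, limma adjusted p = 0.0113), a call lost with the myeloid covariate. The regulator Yy1 had a log2 change of 0.36 ± 0.11 and did not pass.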

How the data were processed

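Per the labels' protocols, total RNA of sorted cells (1 to 20 ng) was amplified and converted to biotinylated cDNA with NuGEN kits. The deposited values are on the log2 scale and, per the submitters' processing notes, come from RMA (Affymetrix Expression Console 1.1). RMA equalises the arrays' probe distributions, so a shift of most genes would be reduced. The sources used here give no array design or genome build. Groups follow the genotype label, and replicate numbers are only names, given by order of deposit.

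Of 28846 probe sets, 22203 carried a gene symbol. For a gene with several, the probe set with the highest mean stood. Changes are KO minus Het, fitted with limma 3.58.1 in R 4.3.3 over the 13083 kept genes, with Benjamini-Hochberg adjustment and a threshold of 0.05. On simulated KO against Het data of 13083 genes, 50 genes were changed at each of 4 sizes. The fit recovered 22% of those changed by 0.5 on the log2 scale. Fewer genes passed there (170) than in the data (757), so the adjusted threshold was stricter in the simulation and the share may be higher in the data.

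Members, lists and role groups were chosen with earlier results of these data known. Named members are those called, the 3 largest rises and falls and the 2 brightest and dimmest in each subunit, 16 picked by role of which 15 had a row, and 8 picked after their values were seen. Other named genes are the 2 with the smallest p of each list, the cytosolic ribosomal and respiratory chain lists included, and 6 picked after their values were seen. Promoters come from RefSeq (GRCm38.p6), matched by symbol. Other scalings, filters, spread models, a myeloid covariate and each array left out were tried.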

Additional observations from a re-analysis of the deposited data

Results flagged for a closer look

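Among 68 genes and subunit means examined, 4 had 1 Het array far from the other Het arrays, by a gap above Dixon's 95% critical value for 4 samples. Chance flags about 1 in 20 groups. Mrps14 read 10.99 in Het replicate 1, against 10.67 to 10.70 in the others. Mrps30 read 7.20 in the same array, against 6.91 to 6.95. Mrps15 read 6.10 in Het replicate 4, against 6.38 to 6.40. Dap3, a small subunit protein with a name of its own, read 8.40 in Het replicate 3, against 8.78 to 8.84.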

How the results depend on the processing

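The number of mitochondrial ribosomal protein genes that fell was 2, and it was 0 with each array centred on its median, 1 after quantile normalization, 1 with no filter on dim genes, 0 with the myeloid marker mean as a covariate, 3 with the stricter filter, array weights or a trend with robust eBayes, and 0 to 4 with an array left out. In each of these settings 0 rose. The stricter filter and the array weights added Mrpl30, and the trend added Mrps14. The median change of large subunit genes was -0.47 with the myeloid covariate, and -0.25 to -0.11 with an array left out, against -0.18. That of small subunit genes was -0.21 to -0.07 with an array left out and -0.29 with the covariate, against -0.16. The members' median minus that of all tested genes was -0.15 in the deposited scaling, -0.15 after median centring and -0.16 after quantile normalization. The myeloid mean shared 85.6% of its variance with genotype, so the myeloid level and the genotype can hardly be told apart.

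Of 142 genes in the 8 other mitochondrial lists, 4 fell and 1 rose. Among the 4, Mtrf1 was tested only through its Het values. The falls numbered 0 after median centring, 2 with no filter, 12 with array weights, 9 with a trend, 0 with the myeloid covariate and 0 to 6 with an array left out. The rises numbered 2 with array weights, 3 with a trend, 0 with the covariate and 1 to 2 with an array left out. Across all genes the calls were 424 lower and 333 higher, 291 and 406 after median centring, 697 and 547 with array weights, 627 and 497 with a trend, and 3 and 0 with the covariate. With an array left out they lay between 240 and 455 lower and between 209 and 290 higher.

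Some changes turned sign, most of them small but those of Mrps10 (-0.48) and Pnpt1 (-0.49) not. With the myeloid covariate Mrps10 was at 0.14, Mrps15 at -0.20, Mrps18a at -0.81, Mrps22 at -0.30, Mrps11 at 0.0528 and Pnpt1 at 0.28. With array weights Mrpl12 was at 0.0158, Mrps18a at -0.0798 and Mrps11 at 0.0568, and after median centring Mrpl37 at 0.0167 and Mrps11 at 0.0534. With an array left out, Mrpl12 ranged from -0.21 to 0.11, Mrpl37 from -0.0934 to 0.00852, Mrpl38 from -0.0255 to 0.21, Mrps11 from -0.0783 to 0.0283, Mrps18a from -0.15 to 0.16, Mrps18c from -0.25 to 0.00839 and Sars2 from -0.19 to 0.0161. The causes were not tested. No paired analysis was possible because the labels give no replicate numbers that pair KO with Het samples. With 3 against 4 arrays, most changes of 0.5 were missed in the simulation, where fewer genes passed than in the data.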
